A study of Mus musculus with 2031 samples.

Results

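The 36 genes described here are immediate early genes and genes that respond quickly to stress, growth signals or the dissociation of a tissue. They were taken by symbol from the series' count table, in which they were 36 of 49671 gene identifiers. By role they were 8 subunits of the transcription factor AP-1 (Fos, Fosb, Fosl2, Jun, Junb, Jund, Atf3 and Maff), 4 EGR zinc finger factors (Egr1 to Egr4), 3 nuclear receptors of the NR4A family (Nr4a1 to Nr4a3) and 4 KLF zinc finger factors (Klf2, Klf4, Klf6 and Klf10). A further 9 were grouped as feedback regulators (Dusp1, Zfp36, Btg2, Socs3, Nfkbiz, Sik1, Ier2, Ier3 and Ier5), a heading that need not describe each of them. The rest were 6 stress and growth genes (Ppp1r15a, Gadd45b, Gadd45g, Rhob, Myc and Csrnp1) and 2 genes best known from active neurons (Arc and Npas4).

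Single cells were sorted from the cortex and hippocampus of C57BL/6J mice at postnatal day 56 and sequenced with Smart-seq2, which copies full-length transcripts without molecular identifiers. The tissue was digested with papain and cleared of myelin on a Percoll gradient, and live cells that carried the astrocyte surface antigen ACSA-2 and lacked the oligodendrocyte antigen O1 were collected. There were 4 cell suspensions. The suspensions cortex 1 and cortex 2 came from 1 mouse each and those mice were littermates, whereas hippocampus 1 and hippocampus 2 were pools of 4 littermates each, from 2 further litters. The labels name no treatment and no allele beyond the strain, so the comparisons were those between cell types, between astrocyte subtypes, between brain areas and between sorting plates. Brain area, litter and the number of pooled mice cannot be told apart in this design. The cell is not a replicate here: counts were summed over the cells of a type within a suspension, and n gives the number of suspensions.

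Of 2030 cells with a file, 1982 had a type in the copy of the authors' list held here, which lacks the last 33 cells: 1781 astrocytes (657 AST1, 555 AST2, 452 AST3, 91 AST4 and 26 AST5), 27, 12, 48 and 47 mural cells in cortex 1, cortex 2, hippocampus 1 and hippocampus 2, 30 endothelial cells, 17 neurons, 11 microglia and 9 oligodendrocytes. The non-astrocytes were cells that passed the sort without being astrocytes. The total count of a cell ran from 600758 to 3238215 with a median of 1458410. All 8 astrocyte markers were detected in at least 50% of astrocytes, and the astrocytes' mean summed CPM (counts scaled to a common total per cell) on 7 mural markers was 132.8 against 50051 in mural cells. The 30 endothelial cells also carried mural markers (mean 15600 CPM, with 2 or more of them in 73.3% of the cells), and their part in the endothelial values was not tested. Types and subtypes had been found by clustering these same cells, so the p-values between them set a difference against the spread between suspensions and are not independent evidence that the groups differ. In sums over cells, fewer cells that express a gene and less RNA per cell cannot be told apart, and shares of single cells are given for this reason further on.

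Immediate early genes are transcribed within minutes of a stimulus because their promoters are already occupied by factors that kinases such as ERK, p38 and PKA switch on. The first products, among them Fos, Jun and Egr1, are transcription factors, and later products such as the phosphatase Dusp1 and the RNA-binding protein Zfp36 close the response again by removing the kinase activity or the messages. The same genes are known to be induced while brain tissue is cut, warmed and digested into a suspension. All cells here went through that preparation, so transcripts present in the animal and transcripts made during preparation cannot be told apart.

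The cAMP response element (CRE) and the CArG box, the site of serum response factor, are the best known entry points of these signals. Promoter sequence was held for 28 of the 36 genes in the RefSeq table (GRCm38.p6), with the start sites of 37 transcripts. It was not held for Egr1, Egr3, Ier2, Klf10, Myc, Arc, Nfkbiz and Sik1. Only the 250 bases before the start were searched, on either strand, so a site further away would be missed. The full CRE palindrome TGACGTCA was found in 4 of the 28 genes (Btg2, Dusp1, Maff and Ppp1r15a). These were 4 of the 37 promoters, against 1.55% of all 32851 promoters. A CArG box was found in 2 genes (Egr2 and Zfp36). These were 5 of the 37 promoters, several of them overlapping ones of Egr2, against 1.47% of all promoters. The AP-1 site TGANTCA was found in 1 gene (Csrnp1) and 1 of the 37 promoters, against 6.75%. The 4 promoters below belong to genes whose levels are described in the following paragraphs. Each is written 5′ to 3′ on the strand of its gene and ends at the base before the start, and capitals mark the CRE, or for Zfp36 the CArG box. All 4 genes lie on the minus strand. The CRE of Dusp1 (chr17:26508473-26508722) and that of Btg2 (chr1:134079156-134079405) lie further from the start than that of Ppp1r15a (chr7:45526269-45526518), which spans base 12 to base 5 before the start. The CArG box of Zfp36 (chr7:28379229-28379478) lies from base 58 to base 49. A match is a description of the letters and not evidence that a factor was bound.
Dusp1: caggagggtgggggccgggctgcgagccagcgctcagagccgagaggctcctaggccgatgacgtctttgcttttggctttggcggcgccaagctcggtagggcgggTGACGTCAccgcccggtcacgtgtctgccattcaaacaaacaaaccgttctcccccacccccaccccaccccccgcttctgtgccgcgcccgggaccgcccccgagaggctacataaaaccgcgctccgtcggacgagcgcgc
Btg2: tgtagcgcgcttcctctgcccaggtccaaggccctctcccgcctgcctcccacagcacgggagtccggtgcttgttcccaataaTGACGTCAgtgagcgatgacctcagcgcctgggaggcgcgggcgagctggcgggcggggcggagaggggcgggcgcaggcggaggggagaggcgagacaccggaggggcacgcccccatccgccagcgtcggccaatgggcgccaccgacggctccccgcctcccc
Ppp1r15a: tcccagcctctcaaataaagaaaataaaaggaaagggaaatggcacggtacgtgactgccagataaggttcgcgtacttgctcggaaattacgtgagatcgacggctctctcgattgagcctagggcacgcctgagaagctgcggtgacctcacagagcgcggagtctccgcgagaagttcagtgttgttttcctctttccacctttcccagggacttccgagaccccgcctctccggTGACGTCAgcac
Zfp36: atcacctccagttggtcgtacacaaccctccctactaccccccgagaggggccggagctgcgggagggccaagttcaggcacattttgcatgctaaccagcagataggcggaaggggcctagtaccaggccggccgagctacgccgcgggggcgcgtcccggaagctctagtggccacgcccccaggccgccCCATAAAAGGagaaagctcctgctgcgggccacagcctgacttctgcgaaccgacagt

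Reads from 7 of the 36 genes could be shared with a gene that overlaps their exons on the opposite strand, and the library did not keep strand: Jun with Junos, Junb with Prdx2, Jund with Gm11175, Dusp1 with Ergic1, Zfp36 with Gm44710, Ppp1r15a with Tulp2 and Csrnp1 with 1700019L13Rik. Their values are uncertain to that extent. Levels between cell types are given as CPM of the summed counts, scaled by trimmed mean of M values (TMM). The scaling factors differed between types (0.57 to 0.59 for astrocytes and 1.50 to 1.65 for microglia), so fold sizes depend on them, and folds of the mean CPM per cell are given beside them.

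The summed level of the 36 genes was highest in the cells of blood vessels and in microglia. In astrocytes it was 2540 CPM in cortex 1, 1981 in cortex 2, 1647 in hippocampus 1 and 2261 in hippocampus 2 (2107 ± 383, SD, n = 4). Mural cells, the pericytes and smooth muscle cells around vessels, stood at 20196, 6675, 30388 and 28189 CPM in the same order (21362 ± 10726). Every mural value lay above every astrocyte value, and cortex 2, with 12 mural cells, was the lowest of them. Endothelial cells held 11284, 19810, 17068 and 18768 CPM (16733 ± 3804, n = 4), from 9, 3, 6 and 12 cells. Microglia, the resident macrophages of the brain, held 24325, 22167 and 13631 CPM (20041 ± 5655, n = 3, without hippocampus 1, where there were 2 cells). Each of these microglial sums held only 3 cells. Both values of neurons, 2198 CPM in each hippocampal suspension, lay within the astrocyte range. Oligodendrocytes, with 617 and 993 CPM, lay below it. Both placements depended on the scaling: the unscaled mean per cell was 2338 and 3190 CPM in neurons, above the 919 to 1366 CPM of the astrocyte suspensions, and 634 and 1082 CPM in the same oligodendrocyte suspensions, where the second overlapped astrocytes.

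**Figure D1:**
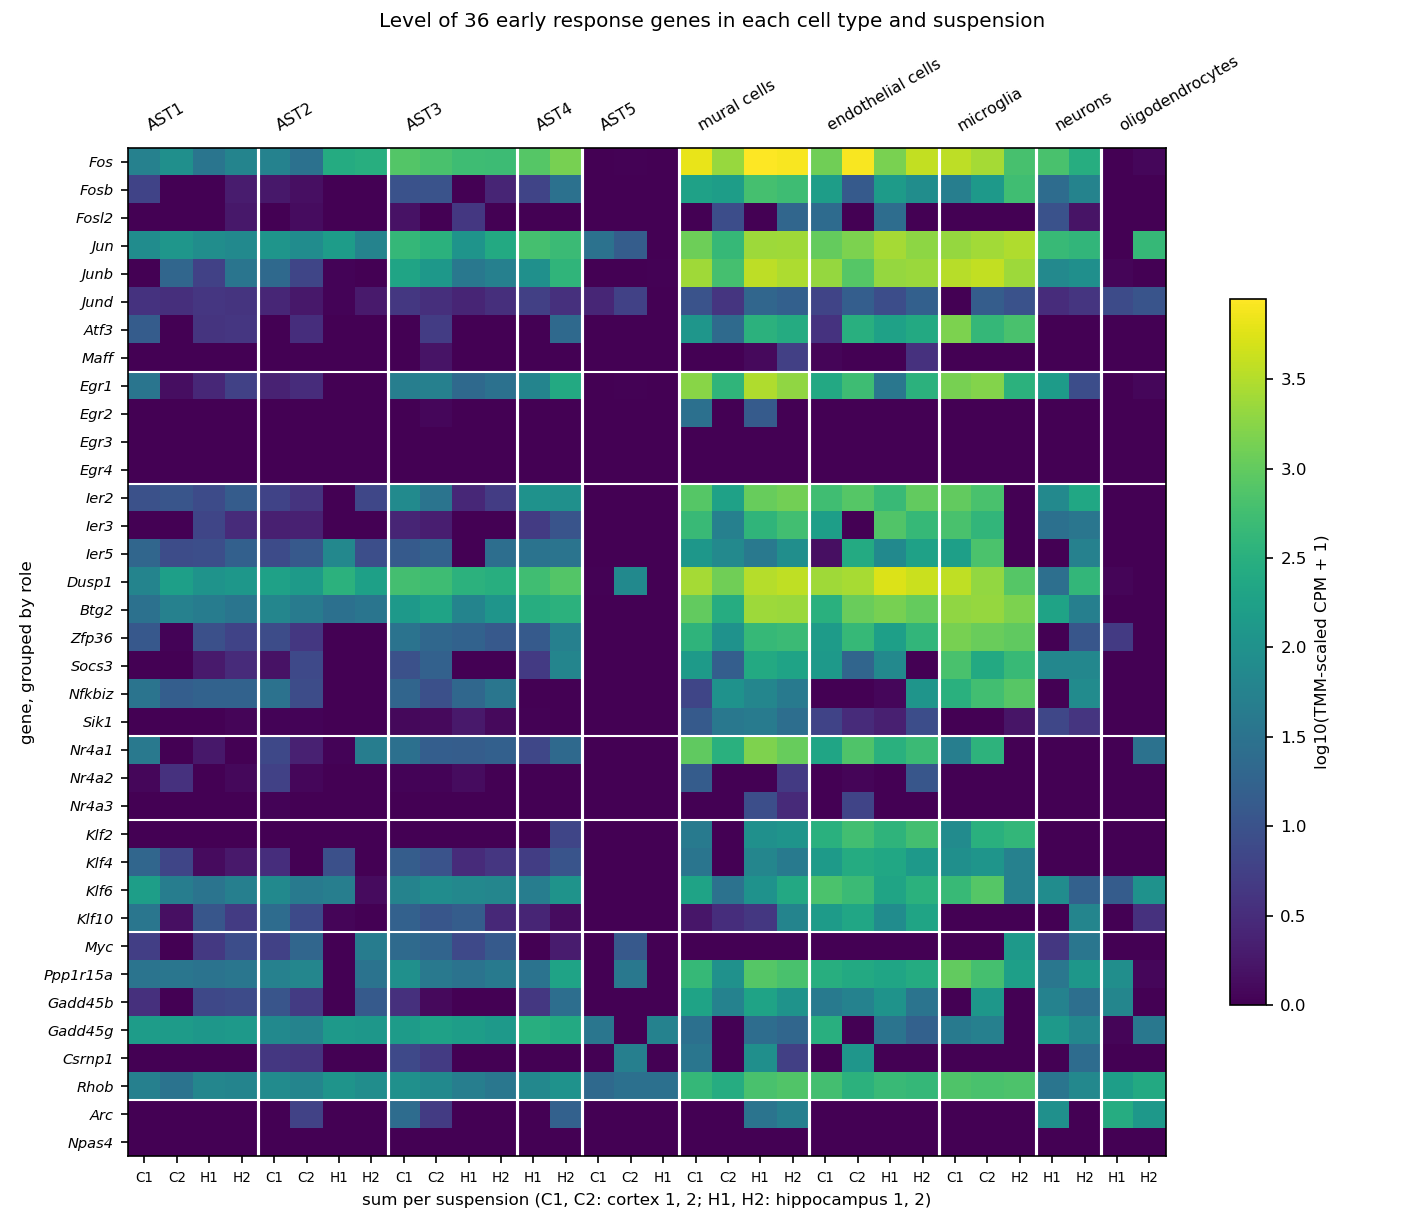
Heat map of log10(TMM-scaled CPM + 1), from dark blue at 0 to yellow, for each early response gene (rows, grouped by role) in each sum of cells over a suspension (columns, grouped by cell type and astrocyte subtype, the subtypes scaled in a fit of their own). Fos, Jun, Junb, Dusp1 and Btg2 are brightest in the mural, endothelial and microglial columns, Fos, Junb and Btg2 are dark in AST5 and in oligodendrocytes, and Egr3 and Npas4 are dark throughout.

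Among the AP-1 subunits, which bind DNA as pairs, Fos was the gene with the highest level per kilobase of exon in astrocytes (195.1 CPM per kb), mural cells (2752) and endothelial cells (1564). In astrocytes Fos stood at 550, 400, 342.5 and 543 CPM in cortex 1, cortex 2, hippocampus 1 and hippocampus 2 (459 ± 104.2, n = 4). In mural cells it stood at 6517, 2174, 8926 and 8274 CPM (6473 ± 3041). The ranges did not overlap, and the log2 fold change was 3.88 ± 0.94 (SE, edgeR quasi-likelihood test, Benjamini-Hochberg adjusted p = 0.0325). Endothelial Fos was far more scattered, with 1246, 8217, 1409 and 3844 CPM, the highest from the 3 cells of cortex 2. All 4 lay above every astrocyte value (log2 fold change 2.96 ± 0.90, edgeR adjusted p = 0.0387). Microglial Fos (3668, 2652 and 641 CPM) did not pass the test (2.20 ± 0.95, edgeR adjusted p = 0.0821).

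Junb, an AP-1 subunit that restrains the activity of Jun at many genes, had the smallest p of the 36 genes in all 3 of these types. It was at 130.9, 78.4, 33.6 and 131.3 CPM in astrocytes (93.6 ± 47.1, n = 4) and at 2457, 609, 3611 and 2941 CPM in mural cells (2404 ± 1287). In endothelial cells Junb stood at 2119, 799, 2144 and 2239 CPM and in microglia at 3361, 3886 and 2373 CPM. The log2 fold changes over astrocytes were 4.62 ± 0.87 in mural cells, 4.24 ± 0.85 in endothelial cells and 5.15 ± 0.91 in microglia (edgeR adjusted p = 0.0120, 0.0162 and 0.00385). Within every suspension each of these types was above its astrocytes. Jun, the partner of Fos, was also higher in every mural, endothelial and microglial sum (astrocytes 358.3, 270, 242.7 and 262.9 CPM, mural cells 1186, 442, 2360 and 2414 CPM), but its spread was wide and it did not pass against astrocytes in any of the 3 types.

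Atf3, which is induced by many kinds of cell stress, was close to absent from astrocytes (2.36, 4.16, 3.00 and 7.68 CPM). It rose to 116.7, 21.9, 348.4 and 271.05 CPM in mural cells and to 1471, 430 and 653 CPM in microglia. Its log2 fold change was 5.28 ± 1.37 in mural cells, 5.49 ± 1.37 in endothelial cells and 7.92 ± 1.57 in microglia (edgeR adjusted p = 0.0325, 0.0387 and 0.0106), although 1 endothelial sum, cortex 1 with 2.84 CPM, lay among the astrocyte values. Fosb, a slower relative of Fos, rose in the same 3 types. Its astrocyte values were 10.6, 5.44, 1.06 and 7.91 CPM and its mural values 178, 155, 614 and 525 CPM.

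Egr1, a zinc finger factor that mitogens and synaptic activity induce, supplied nearly all of the EGR level. Astrocytes held 42.3, 30.1, 19.1 and 69.7 CPM of Egr1, and mural cells 1768, 388, 3062 and 1998 CPM. It rose in mural cells (log2 fold change 5.51 ± 1.28, edgeR adjusted p = 0.0325) and in microglia (4.71 ± 1.30, adjusted p = 0.0370) but did not pass in endothelial cells (2.80 ± 1.14, adjusted p = 0.0894). Egr3 had no count in any cell type and Egr4 was too low to test. Nr4a1, an orphan nuclear receptor of the same early wave, reached 957, 326.6, 1530 and 1066 CPM in mural cells against 5.58 to 27.4 CPM in astrocytes, with no overlap, and narrowly missed the test (log2 fold change 6.32 ± 2.05, edgeR adjusted p = 0.0548).

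Among the KLF factors, Klf2 had its highest levels in endothelial cells and microglia. Klf2, which blood flow induces in the vessel lining, stood at 317.97, 568, 374.8 and 598 CPM in endothelial cells (465 ± 138.98, n = 4) and between 79.2 and 407 CPM in microglia. Astrocytes had 0, 0, 0 and 1.25 CPM, so the fitted change carries no reliable size, but the call passed in both types (edgeR adjusted p = 0.0387 and 0.0443). Mural Klf2 (39.6, 0, 93.9 and 110 CPM) did not pass (adjusted p = 0.0706). Klf2 was detected in 93.3% of endothelial cells (28 of 30, 95% Wilson interval 78.7 to 98.2%), in 22.4% of mural cells and in 0.168% of astrocytes. Klf10 went the other way in microglia, with no count in any of the 3 sums against 4.31 to 34.1 CPM in astrocytes, without passing the test (adjusted p = 0.0504).

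Among the feedback regulators, Btg2 rose in 3 cell types and Dusp1 in 1. Dusp1, a phosphatase that inactivates MAP kinases, was at 487, 443, 321.2 and 393 CPM in astrocytes and at 2432, 2732, 5539 and 4382 CPM in endothelial cells, where it rose (log2 fold change 3.17 ± 0.89, edgeR adjusted p = 0.0387). Its mural values of 2607, 1243, 3200 and 3674 CPM all lay above the astrocyte range as well, with an adjusted p of 0.0534 in the edgeR test. Btg2, an antiproliferative partner of the deadenylase complex, varied little between suspensions in astrocytes (150.9, 153.8, 117.2 and 145.5 CPM). It rose in mural cells (1011, 279.2, 2314 and 2232 CPM), endothelial cells (320, 1100, 1382 and 1026 CPM) and microglia (1944, 2113 and 1495.05 CPM), by 3.17 ± 0.84, 2.66 ± 0.81 and 3.81 ± 0.88 on the log2 scale (edgeR adjusted p = 0.0325, 0.0395 and 0.0190). All values of these 3 types lay above the astrocyte range.

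Zfp36 and Sik1 passed the edgeR test in 1 type each, and whether the types differed from each other was not tested. For both genes every mural and every endothelial sum lay above every astrocyte sum. The folds were 18.9 and 15.5 for Zfp36 and 114.5 and 15.7 for Sik1. Both neuron sums lay above the astrocytes for Sik1 and below them for Zfp36. Zfp36, which speeds the decay of AU-rich messages, stood at 1359, 1120 and 956 CPM in microglia against 14.01 to 25.0 CPM in astrocytes (log2 fold change 5.97 ± 1.65, adjusted p = 0.0367). Sik1, a salt-inducible kinase that acts on CREB coactivators, was at 12.05, 37.2, 42.6 and 25.4 CPM in mural cells against 0.214 to 0.320 CPM in astrocytes (6.72 ± 1.86, adjusted p = 0.0325). Sik1 was detected in 56.7% of mural cells and in 58.8% of neurons, against 1.91% of astrocytes.

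Among stress and growth genes only the small GTPase gene Rhob passed the edgeR test in mural cells, endothelial cells and microglia. It held 125, 100, 96.0 and 97.04 CPM in astrocytes and 719, 651 and 692 CPM in microglia, where the SD was 34.3 around a mean of 687. Rhob rose by 2.30 ± 0.70 in mural cells, 2.13 ± 0.69 in endothelial cells and 2.74 ± 0.73 in microglia on the log2 scale (edgeR adjusted p = 0.0383, 0.0445 and 0.0318). Gadd45g, a growth arrest gene, showed the opposite order. It was at 177.3, 170.9, 231.7 and 229.2 CPM in astrocytes (202.3 ± 32.6) and at 28.0, 0, 24.4 and 19.5 CPM in mural cells, without passing the test, and it was found in 31.9% of astrocytes (569 of 1781) but 3.73% of mural cells (5 cells). Myc had no count in any mural or endothelial cell. A floor of 3 counts over the 4 sums lies 798-fold below the astrocyte level in mural cells and 251.7-fold below it in endothelial cells. Astrocytes held 5.31 to 26.5 CPM of Myc. The floor does not allow for the number of cells, so it does not bound the fold. Myc was not among the 13 genes found in at least 5% of astrocytes. Neither difference passed the edgeR test (adjusted p = 0.0594 and 0.0597).

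In all, 33 of the 36 genes had enough counts to test between types (not Egr3, Egr4 and Npas4). Of these, 8 rose in mural cells (Fos, Fosb, Junb, Atf3, Egr1, Btg2, Sik1 and Rhob), where 1.76% of all 16368 genes tested rose. In endothelial cells 8 rose (Fos, Fosb, Junb, Atf3, Klf2, Dusp1, Btg2 and Rhob), against 1.92% of all genes, and in microglia 8 (Fosb, Junb, Atf3, Egr1, Klf2, Zfp36, Btg2 and Rhob), against 0.794%. None of the 33 fell in these types by the edgeR test, whereas DESeq2 called 1, 3 and 6 lower. With the suspension as a block, which compares types within the same animals, the count was 0 in mural and in endothelial cells and 2 in microglia (Junb and Atf3), and the log2 fold changes of the called genes moved little (Junb in mural cells 4.53, adjusted p = 0.0559). In the fit with the block 1.01%, 1.44% and 3.15% of all genes were called in mural cells, endothelial cells and microglia. Without cortex 2 there was 1 call in mural and 1 in endothelial cells, against 0.689% and 0.727% of all genes. Without any other suspension there was 0 in both types. There 0.146% to 0.272% of all genes were called in mural and 0.0661% to 0.283% in endothelial cells. In microglia there was 1 without cortex 1, 3 without cortex 2, 4 without hippocampus 1 and 3 without hippocampus 2. The shares of all genes were 1.07%, 3.85%, 3.12% and 1.55% in the same order. Without a model, every mural sum was above every astrocyte sum for 16 of the 33 genes, against 6.19% of all genes tested. The same held for 18 genes in endothelial cells, against 4% of all genes, and for 15 in microglia, against 2.51%. The median log2 fold change of the genes was 3.55 in mural cells, 2.82 in endothelial cells and 2.74 in microglia, beside −1.19, −2.41 and −9.45 over all genes tested. Fitted changes of genes without counts in a group have no size, so medians over all genes, above all that of microglia, are not typical changes. A positive change was fitted for 29, 28 and 22 of the 33 genes, against 28.1%, 21.5% and 13.7% of all genes. Folds were taken for the 32, 30 and 25 of the 36 genes with more than 3 counts in both groups. Their median was 12.4 in mural cells, 8.60 in endothelial cells and 13.04 in microglia, and with the mean CPM per cell 23.5, 16.1 and 38.9. Genes without counts in a type are left out of these folds, which raises the medians where such genes were lower. Without scaling factors the medians were 4.24, 3.86 and 4.18 for the genes and −0.57, −1.50 and −9.27 for all genes on the log2 scale.

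**Figure D2:**
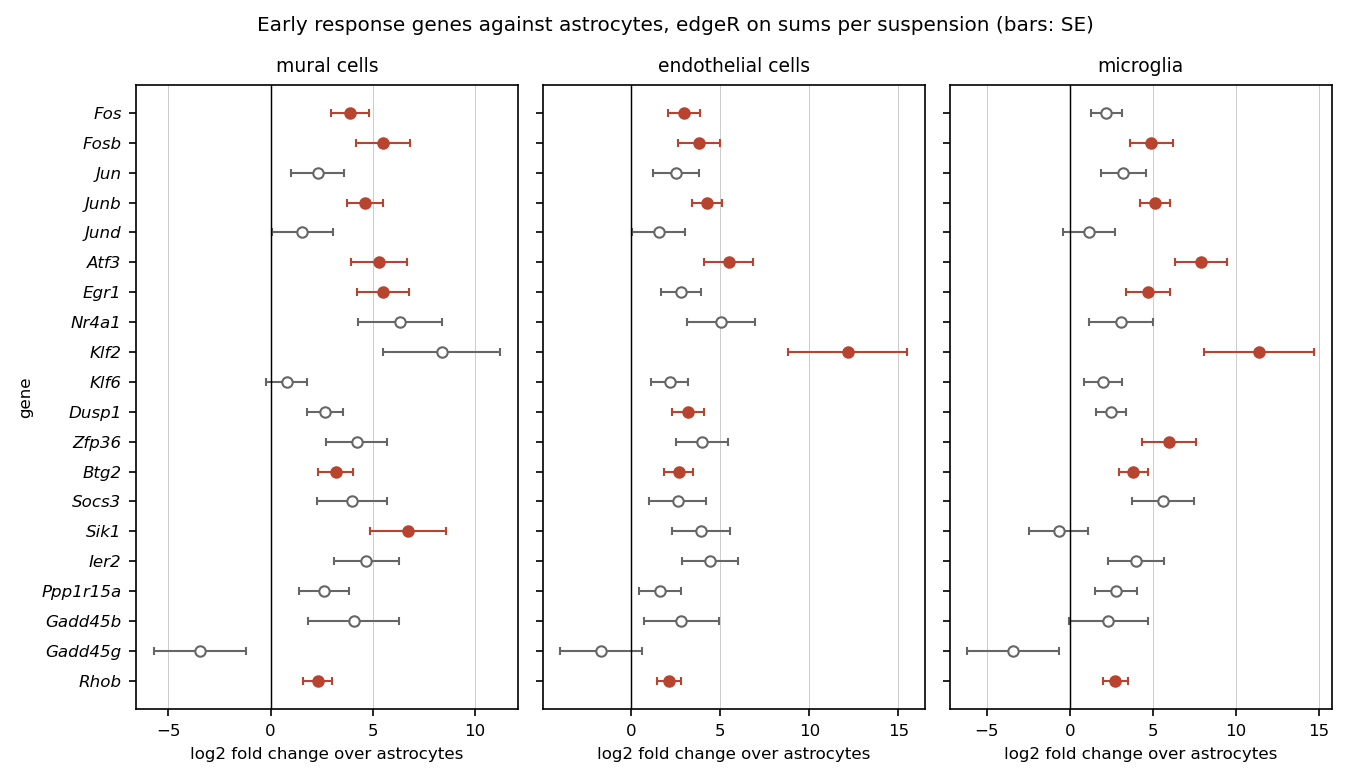
Log2 fold change over astrocytes (horizontal axis, bars give the SE) of 20 early response genes in mural cells, endothelial cells and microglia, from edgeR on sums per suspension. Filled red points passed an adjusted p of 0.05 and open gray points did not; Junb, Atf3, Fosb, Btg2 and Rhob are red in all 3 types, and Gadd45g lies left of 0 in all 3.

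No gene of the 36 rose by the edgeR test in neurons or oligodendrocytes, and these types were not tested against the other non-astrocytes. In neurons 0 of 33 genes passed the edgeR test, against 0.562% of all genes, and 3 had an unadjusted p under 0.05, against 24.1% of all genes (DESeq2 called 6, and 4129 of all 16368 genes). The 3 with an unadjusted p under 0.05 were Atf3, Nr4a1 and Klf4, with no count in 17 neurons. Both neuron sums lay above every astrocyte sum for 7 genes (Fosb, Jun, Ier2, Ier3, Socs3, Gadd45b and Sik1), against 10.5% of all genes, and below for 8, against 49.3%. The median log2 change of the genes was −0.36, against −2.11 over all genes, and for the genes it was 0.75 without scaling factors. Fos in neurons (659 and 283.95 CPM) overlapped its astrocyte range. The oligodendrocyte sums held 4 and 3 cells of the hippocampal suspensions and left out 2 cells of cortex 1, too few for a sum. In these sums 4 genes fell by the edgeR test (Btg2, Dusp1, Junb and Fos, adjusted p = 0.00287, 0.00368, 0.00414 and 0.00476), against 0.739% of all genes, and 0 passed with the suspension as a block. Without hippocampus 1 or without hippocampus 2 only 1 oligodendrocyte sum remains, and the 4 calls did not all hold in either fit. Both oligodendrocyte sums were below every astrocyte sum for 21 of 33 genes, which is the share of all genes tested (63.6%). Fos, Dusp1, Junb and Egr1 were at the floor there, with 1 count each over the 2 sums. Btg2 had no count in those sums, where a floor of 3 counts lies 684-fold below its astrocyte level. The floor does not allow for the small number of cells, so it does not bound the fold. Btg2 was found in 13.4% of astrocytes. Dusp1 was found in both of the cells left out, whereas Fos, Junb, Egr1 and Btg2 were each found in 1 of them. The mean of Dusp1 over all 9 cells was 48.6 CPM, against 216.05 CPM over astrocytes. Rhob, with 160.8 and 247.99 CPM, and Arc, the dendritic capsid-like protein gene, with 278.7 and 127.3 CPM, lay above the astrocyte range together with Jund, and Arc was found in 5 of 9 oligodendrocytes against 0.393% of astrocytes.

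The sums arose from very different shares of cells. The median cell had counts on 2 of the 36 genes among astrocytes, 5 among neurons and oligodendrocytes, 11 among mural cells, 15 among endothelial cells and 17 among microglia. At least 10 of the genes were found in 73 mural cells (54.5%), 26 of 30 endothelial cells (86.7%) and 9 of 11 microglia (81.8%), but in 36 of 1781 astrocytes (2.02%). In mural cells that share was 51.9% in cortex 1, 25% in cortex 2, 56.3% in hippocampus 1 and 61.7% in hippocampus 2. No count on any of the genes was found in 13.03% of astrocytes and in none of the other types. Intervals and floors here cover counting error only, since PCR copies without molecular identifiers are not independent molecules.

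Fos was found in 16.9% of astrocytes (95% Wilson interval 15.2 to 18.7%), 68.7% of mural cells (60.4 to 75.9%), 86.7% of endothelial cells, 72.7% of microglia, 35.3% of neurons and 22.2% of oligodendrocytes. Egr1 was found in 5.11% of astrocytes and 64.9% of mural cells, and Jun in 26.3% and 62.7%. The median count per cell was 1469310 in astrocytes and 1216970 in mural cells, so the mural cells with the higher shares were the less deeply sequenced. The 90 astrocytes (5%) with the highest summed level of the 36 genes held 46.1% of that level over all astrocytes.

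**Figure D3:**
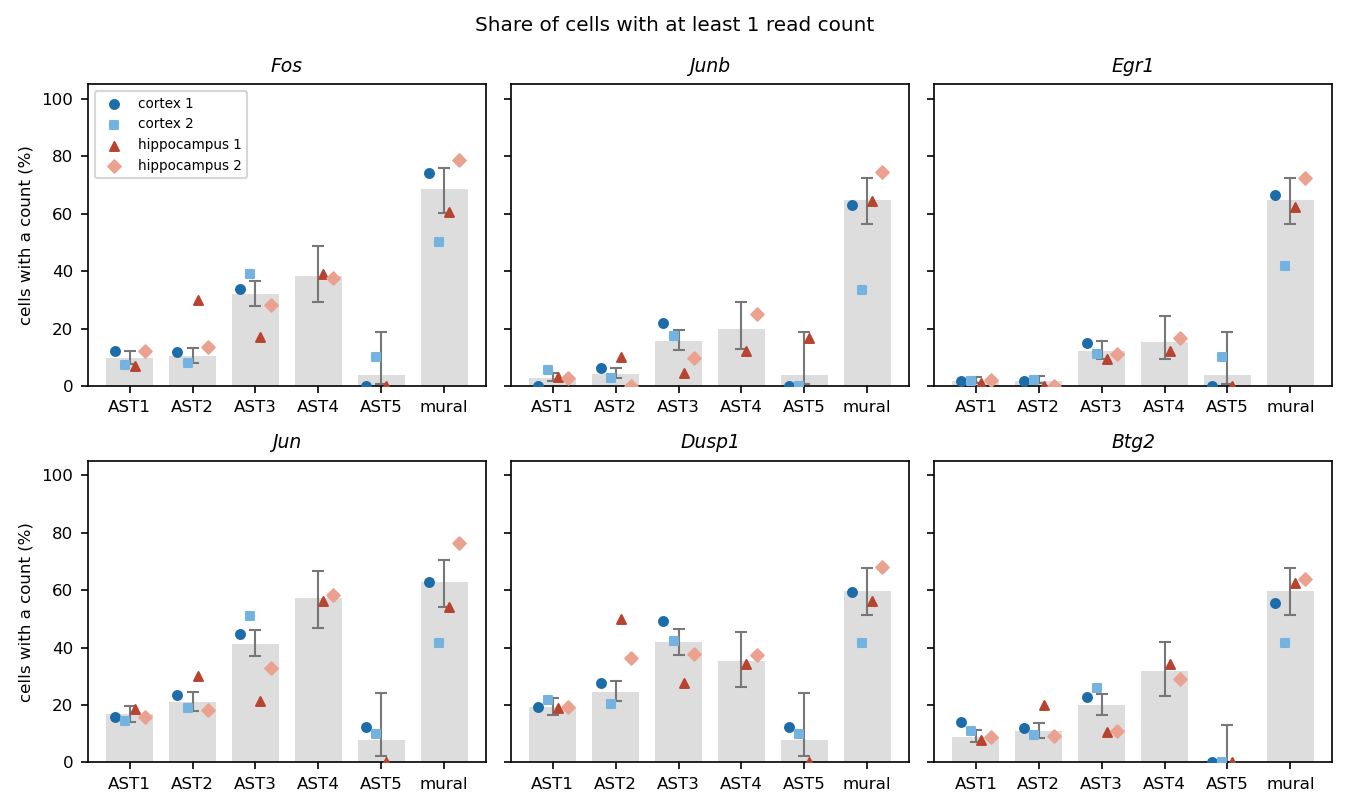
Percent of cells with at least 1 count (vertical axis) of Fos, Junb, Egr1, Jun, Dusp1 and Btg2 in the astrocyte subtypes and mural cells. Bars give all cells, whiskers the 95% Wilson interval, and points the suspensions that held at least 5 cells of the group. Fos rises from 9.59% in AST1 and 10.3% in AST2 to 32.1% in AST3, 38.5% in AST4 and 68.7% in mural cells.

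Within astrocytes the genes were unevenly spread over the 5 subtypes. AST1 is the mainly hippocampal and AST2 the mainly cortical subtype, AST3 occurs in both areas, AST4 is nearly confined to the hippocampus and AST5 is the smallest. These sums were scaled in a fit of their own, so their CPM are not on the scale of the type comparison. The summed level of the 36 genes was 719 ± 105.9 CPM in AST1 (n = 4), 881 ± 232.4 in AST2 (n = 4), 2107 ± 644 in AST3 (n = 4), 3031 and 4661 in AST4 and 130 ± 77.7 in AST5 (n = 3). Of the 36 astrocytes with counts on at least 10 of the genes, 24 were AST3 (5.31% of AST3), 11 were AST4 (12.1%) and 1 was AST2.

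In AST3, Fos stood at 771, 660, 531 and 518 CPM in cortex 1, cortex 2, hippocampus 1 and hippocampus 2, above AST1 (52.7, 91.1, 33.8 and 59.4 CPM) and above AST2 (55.3, 28.4, 268.1 and 296.9 CPM). No AST3 value overlapped a value of AST1 or AST2. AST3 was above AST1 within all 4 suspensions for 10 of the 29 genes tested (Btg2, Dusp1, Egr1, Fos, Jun, Junb, Myc, Ppp1r15a, Sik1 and Zfp36), against 6.36% of all 18233 genes. It was above AST2 within all 4 for 9 genes, against 9.39%. Against the other subtypes together, 0 of the 29 genes passed for AST3 by the edgeR test with Benjamini-Hochberg adjustment, and 0 of all genes (0%). With equal weights for the other subtypes, which gives the 26 AST5 cells as much weight as the others, 5 passed, against 4.95% of all genes. In the comparison weighted by cell number 4 genes had an unadjusted p under 0.05, against 1.89% of all genes (Fos 2.77 ± 0.54, Btg2 1.62 ± 0.37, Egr1 4.17 ± 1.16 and Sik1 3.22 ± 1.46 on the log2 scale), and DESeq2 called 5, all higher, among 727 of all 18233 genes. Decreases of many genes could not be tested this way. The contrast averages log levels, 18 of the 29 genes had no count in the AST5 sums, and the 5 of these with a negative change in AST3 all had a p near 1 (smallest 0.950). With AST5 not among the subtypes compared with, a fit chosen after seeing the data, 0 passed and 3 had an unadjusted p under 0.05, against 2.64% of all genes. AST3 cells were also sequenced more deeply, with a median of 1659870 counts against 1431480 in AST1. With each cell thinned to 600000 counts, Fos was found in 30.3% of AST3 and 7.15% of AST1 cells.

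The summed level was highest in AST4, but not that of every gene. AST4 was above AST3 in both hippocampal suspensions for 16 of the 29 genes tested, against 23.4% of all genes, and below it in both for 4 (Klf10, Myc, Nfkbiz and Sik1), against 25.7%. Of the 36 genes, 17 genes were found in more and 17 in fewer AST4 than AST3 cells. The 5 AST4 cells with the highest summed level, of 91, held 47.3% of it, and the median cell was at 931 CPM in AST4 and 703 CPM in AST3, with means of 4017 and 1925 CPM. For single genes, the 5 AST4 cells highest in each held 60.2% of Btg2 and 79.5% of Egr1. Btg2 stood at 283.4 and 343.97 CPM in AST4, against 40.3 ± 11.1 CPM in AST1, 42.2 ± 16.1 in AST2 and 125 ± 56.96 in AST3, and it passed the edgeR test (log2 fold change 3.06 ± 0.48, adjusted p = 0.00836, n = 2). It was the 1 gene called of 29, against 0.11% of all genes higher, and 9 of the 29 had an unadjusted p under 0.05, against 7.82% of all genes. Those 9 were higher, but decreases of the genes without counts in AST5 could not be tested here either. With AST5 not among the subtypes compared with, Btg2 was again the 1 gene called (2.83, adjusted p = 0.0145), and 9 genes higher and 1 lower (Nfkbiz) had an unadjusted p under 0.05, against 9.63% of all genes. With either hippocampal suspension left out, AST4 has 1 sum, assumed to vary like the other groups, and Btg2 was not called. Leaving out cortex 2 gave 2 calls, against 0.572% of all genes. Egr1 (59.9 and 251.8 CPM, adjusted p = 0.0659) and Fos (799 and 1372 CPM, adjusted p = 0.120) did not pass. AST4 was above AST1 in both suspensions for 16 of the 29 genes, against 21% of all genes. Gadd45g was found in 58.2% of AST4 cells (53 of 91), and the AST4 cells' median count of 1405690 was below that of AST1.

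In AST5 the genes were low. By the edgeR test 12 of 29 fell (Fos, Jun, Junb, Egr1, Klf4, Klf6, Klf10, Btg2, Ier2, Ier5, Nfkbiz and Zfp36), against 16.6% of all genes. The AST5 sums held only 8 cells in cortex 1, 10 in cortex 2 and 6 in hippocampus 1. The part of these small numbers in the calls was not tested. With the suspension as a block 7 fell, where 12.45% of all genes were called. The count was 3 of 29 without cortex 1, against 9.56% of all genes, and 3 of 31 without hippocampus 2, against 7.29%. It was 6 of 29 without cortex 2, against 8.53%, and 6 of 33 without hippocampus 1, against 12.4%. Jun, the 1 called gene with a measurable level, fell by 3.73 ± 1.18 on the log2 scale (edgeR adjusted p = 0.0446). Fos was found in 1 of 26 AST5 cells with 1 count, and Btg2 in 0 of 26, where 3 counts of the total allow up to 11.5% of cells with a count, not of cells that express the gene. AST5 cells stood apart in general: the median share of counts outside exons was 1.59% against 12.5% in all astrocytes, and its part in the low values was not tested. AST1 and AST2 had 0 of 29 genes called, against 0.0384% and 0.0548% of all genes, but the 7 and 12 genes with a negative change and no count in AST5 had a p of 0.925 or more, so these counts say little about decreases. With AST5 not among the subtypes compared with, 0 were called in either, and 2 (Fos and Btg2) and 1 (Egr1) had an unadjusted p under 0.05, against 4.14% and 2.83% of all genes. In the comparison with AST5 1 gene each had an unadjusted p under 0.05, which were Fos in AST1 (−2.08 ± 0.64) and Egr1 in AST2 (−5.61 ± 1.63 on the log2 scale).

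The subtypes also differed in how much Fos a Fos-positive cell held. The median among positive cells was 88.6 CPM in 63 AST1 cells and 112.6 CPM in 57 AST2 cells, with only 1 to 3 counts in 39.7% and 28.1% of them. It was 1010 CPM in 145 AST3 cells, 1672 CPM in 35 AST4 cells and 7588 CPM in 92 mural cells. In AST3 and AST4 the partners were found together. Jun was found in 75.2% of Fos-positive and 25.4% of Fos-negative AST3 cells, Egr1 in 32.4% and 2.61%, and Junb in 35.9% and 6.19%. The direction held in each of the 4 suspensions for these 3 genes. In mural cells Junb and Egr1 were each found in 89.1% of Fos-positive and 11.9% of Fos-negative cells. In AST4, Jun was found in 71.4% of Fos-positive and 48.2% of Fos-negative cells, Junb in 42.9% and 5.36%, and Egr1 in 37.1% and 1.79%. The AST2 shares were 33.3% and 19.7% for Jun, 12.3% and 3.41% for Junb, and 3.51% and 1.61% for Egr1. In AST1, Egr1 was found in 12.7% of Fos-positive and 0.505% of Fos-negative cells, Junb in 6.35% and 2.53%, and Jun in 14.3% and 17.003%. No test compared the subtypes. Fos-positive AST3 cells had more counts (median 1829400 against 1582440), and with every cell thinned to 600000 counts the shares in AST3 were 76.6% and 25.1% for Jun, 32.8% and 1.90% for Egr1 and 37.2% and 5.71% for Junb. In mural cells the median counts were 1222200 and 1177000.

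Across the 1781 astrocytes, Spearman correlations of CPM were computed within each suspension for the 78 pairs of the 13 genes found in at least 5% of the cells, and the median over the 4 suspensions was taken. They are a description, since all genes of a cell share its depth. The median over pairs was 0.0946, the highest was 0.428 for Egr1 and Fos, and 75 of 78 were above 0. With the summed CPM of the 36 genes, which includes the gene itself, Dusp1 (0.505), Jun (0.458) and Fos (0.443) correlated most. Among 6473 other genes found in at least 10% of astrocytes, the values nearest to the summed level were those of Ccn1 (0.179), Gm12183 (0.161), Fabp7 (0.147), Ddit4 (0.142), 1700066M21Rik (0.133), Ddx5 (0.129), Btg1 (0.124), Gnl3l (0.123), Gm5424 (0.123) and Gm20421 (0.120). These are weak in sparse counts.

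Between brain areas, 0 genes passed the edgeR test with Benjamini-Hochberg adjustment in all astrocytes (29 tested), AST1 (25), AST3 (28) or mural cells (32), and so did 0% of all genes in each of these comparisons of 2 against 2 suspensions. With an unadjusted p under 0.05 there were 3, 2, 11 and 6 genes, against 13.6%, 13.03%, 10.3% and 9.05% of all genes. In all astrocytes Gadd45g was higher in the hippocampus (231.7 and 229.2 against 177.3 and 170.9 CPM, log2 fold change 0.41 ± 0.09, adjusted p = 0.231) and Dusp1 was lower (321.2 and 393 against 487 and 443 CPM, −0.37 ± 0.13, adjusted p = 0.366). Both hippocampal sums lay below both cortical sums for 9 of 29 genes, against 23.2% of all genes. In AST1 both lay above for 5 of 25 genes, against 29.2%. Neither share stood out from its background.

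In AST3 the genes tended to be lower in the hippocampus. Both hippocampal sums were below both cortical sums for 17 of 28 genes, against 24.2% of all genes, and the median log2 fold change was −0.93, against −0.04 over all genes. Junb was at 200 and 128.9 CPM in cortex and 37.3 and 51.9 CPM in hippocampus (−1.89 ± 0.34 on the log2 scale, edgeR adjusted p = 0.380). Ier2, an early response nuclear protein gene, was at 76.2 and 32.2 CPM against 1.76 and 4.05 CPM, and Dusp1 at 597 and 531 against 346.5 and 303.7 CPM. Socs3, an inhibitor of cytokine signaling, had counts in both cortical suspensions and none in the hippocampal ones. Counts on at least 10 of the genes were found in 13 and 9 cortical AST3 cells (8.44% and 5.96%) and in 1 of 65 and 1 of 82 hippocampal ones (1.54% and 1.22%). Fos was found in 33.8% and 39.1% of cortical and 16.9% and 28.0% of hippocampal AST3 cells. The cortical AST3 cells were also sequenced more deeply, with median counts of 1711230 and 1745830 against 1587140 and 1462530. The part of depth in these shares was not tested.

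In mural cells the tendency ran the other way. Both hippocampal sums were above both cortical sums for 21 of 32 genes, against 27.9% of all genes, with a median log2 fold change of 1.20, against 0.24 over all genes. Fosb was at 178 and 155 CPM in cortex and 614 and 525 CPM in hippocampus (1.72 ± 0.30, edgeR adjusted p = 0.535), Jun at 1186 and 442 against 2360 and 2414 CPM, and Rhob at 433 and 282.5 against 656 and 749 CPM. The cortical side rested in part on cortex 2, whose 12 mural cells gave the lowest value for Fos, Jun, Junb, Egr1 and Rhob. The difference between the area contrasts of mural cells and AST3 was fitted in 1 model, a test added after these values had been seen. It was positive for 24 of 28 genes, with a median of 2.28 against 0.39 over all genes, and 0 passed, against 0.0865% of all 12717 genes tested. Over all genes 59.7% were positive. An unadjusted p under 0.05 was reached by 11, all positive, against 9.69% of all genes, and the smallest adjusted p was 0.111. Rhob differed by 1.95 ± 0.46 (adjusted p = 0.151), Ier2 by 5.44 ± 1.23 (adjusted p = 0.141) and Junb by 2.95 ± 0.91 on the log2 scale (adjusted p = 0.315). With the suspension as a block 0 passed, and DESeq2 called 8 of the 28 and 1990 of all 12717 genes. Of the 27 genes with a level to compare in both groups, 22 were lower in the hippocampus in AST3 and higher there in mural cells. For 13 of the 27 the suspensions did not overlap in either group, against 6.41% of the 9804 genes tested in both. Between AST3 and AST1, 4 of 24 genes (Gadd45b, Ier3, Rhob and Socs3) were lower in the hippocampus in AST3 and higher there in AST1 without overlap, against 6.01% of all genes tested in both.

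**Figure D4:**
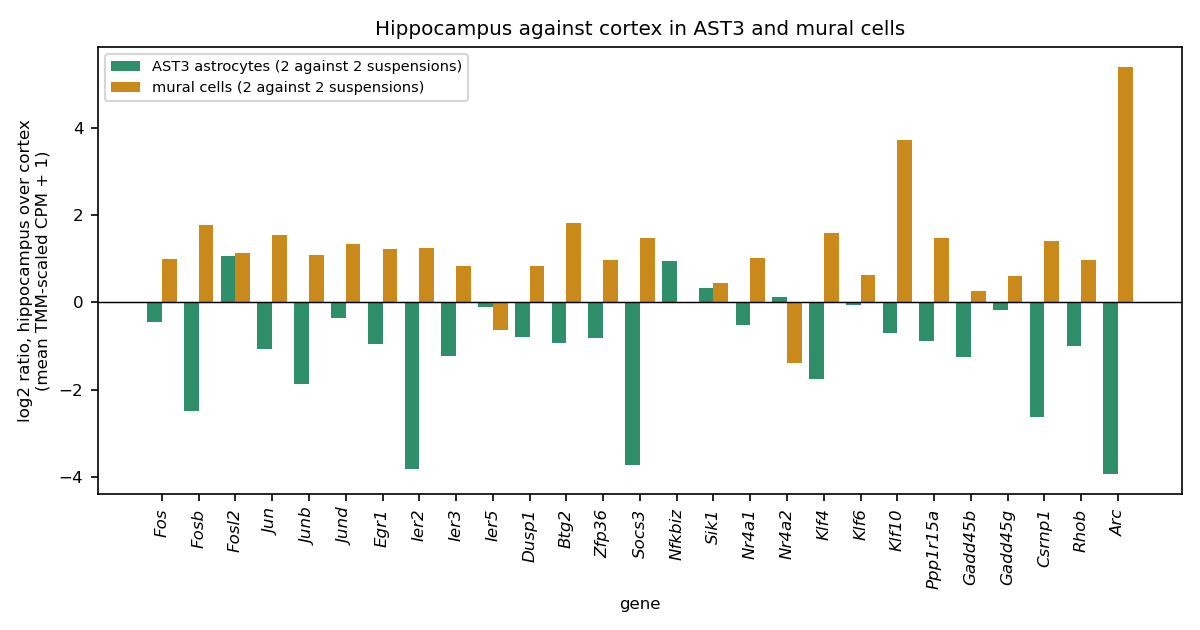
Log2 ratio of the mean hippocampal to the mean cortical level (TMM-scaled CPM + 1, vertical axis) for 27 early response genes in AST3 astrocytes (green) and mural cells (orange), 2 against 2 suspensions each. Green bars point down for 23 genes and orange bars up for 25; no single bar passed an adjusted p of 0.05 by the edgeR test, and DESeq2 called 12 genes in AST3 and 7 in mural cells.

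The cells had been sorted into 32 plates, 8 per suspension, and the stock of template-switching oligonucleotide used for 14 of the plates had been frozen and thawed 1 time more than that for the other 18. The mean summed CPM of the 36 genes over a plate's astrocytes ran from 581 (plate 58, hippocampus 1, 13 astrocytes) to 3136 (plate 95, cortex 1, 34 astrocytes), with a median of 993. It was 1056 ± 377.8 on the 18 plates with 0 cycles and 1210 ± 609 on the 14 plates with 1 cycle (SD over plates). Of 21 genes tested with suspension as a covariate, 0 were called by the edgeR test, 0 had an unadjusted p under 0.05, and 0% of all genes were called. The share of astrocytes with Fos ran from 7.69% on plate 58 to 35.3% on plate 95, with a median of 15.5%. Plate 95 stood above the 7 other plates of cortex 1, and its median astrocyte, with 885 CPM, was also the highest of those plates (lowest 360.7, middle 612.9). These values rest on its 34 typed astrocytes. The 33 further cells of the plate, whose type is not held here, had a mean of 1081 and a median of 451 CPM. Without plate 95, a check chosen after seeing the data, 0 genes were called between areas in all astrocytes, against 0% of all genes. In the same check 10 of 29 fell in AST5, where 16.97% of all genes were called in either direction.

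**Figure D5:**
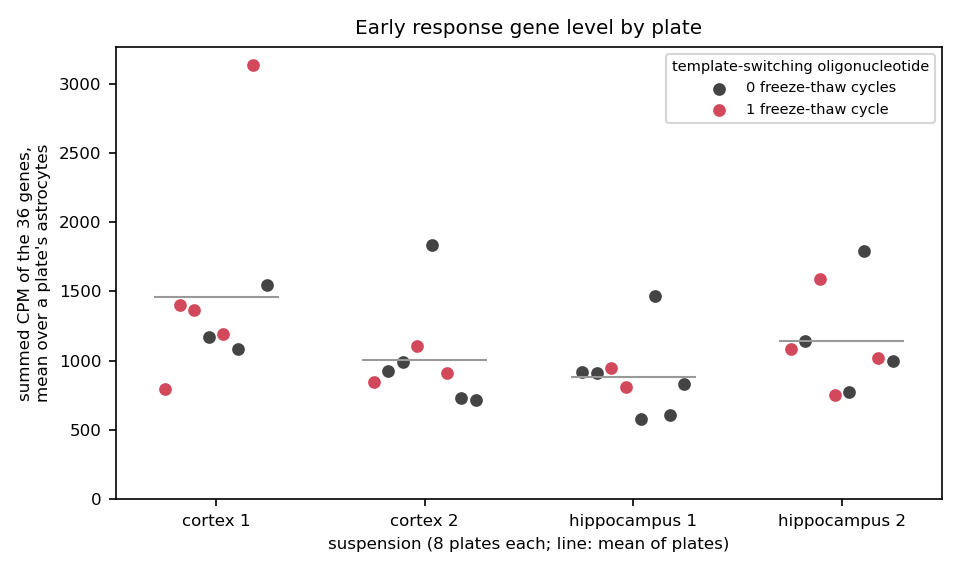
Mean summed CPM of the 36 genes over the astrocytes of each plate (vertical axis), by suspension, with plates of 0 and 1 freeze-thaw cycles marked. Most plates lie near the median of 993, and plate 95 of cortex 1 stands alone at 3136, over its 34 typed astrocytes and without its 33 cells of unknown type.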

How the data were processed

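The deposited values were read counts per gene and cell, made by the authors, and 1 file held 1 cell. According to the paper's methods and the submitters' processing notes, reads were checked with FastQC 0.11.4, mapped with STAR 2.5.2b to GRCm38.p5 with spike-in sequences, kept where STAR mapped them uniquely, merged and sorted with Samtools 1.4 and counted over exons with HTSeq 0.6.1p1, whose strand setting is not given in the sources used here. A table of the whole series was not used for values: 2027 of its columns were not used, and 4 were compared with the files of the cells and held equal counts. Cell types and subtypes were the authors' own annotation. The copy of that annotation used here was cut short by 33 cells, all on plate 95, which therefore entered no comparison.

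Total counts per cell ran from 600758 to 3238215, so 1 count was worth 1.66 CPM in the shallowest cell. Counts were summed over the cells of a type (at least 3 cells) or astrocyte subtype (at least 5) in a suspension, or over a plate with at least 10 astrocytes. Sums were tested on the whole table with edgeR 4.0.16 (R 4.3.3) by the quasi-likelihood test with TMM scaling, filtering of low counts and Benjamini-Hochberg adjustment, and an adjusted p under 0.05 was called. SE was the log2 fold change over the root of the F statistic. A gene without counts in a group was given a floor of 3 counts over the group, since a fitted change then has no size. That floor covers counts and does not allow for the number of cells. The types were fitted in 19 sums and the subtypes in 17. Shares of cells carry 95% Wilson intervals. Other tools were limma 3.58.1, DESeq2 1.42.0, Python 3.11.15 and scipy 1.17.1. The edgeR test was run on simulated data for mural cells, AST3, areas in all astrocytes and plates. The other comparisons and tools were not.

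The genes, the other lists and the tests were chosen with earlier results of these data known. Genes are named where they were called, up to 12 per comparison by size of change, with 17 listed members where a result turns on them, up to 6 called genes per comparison from the other lists, and the 10 non-members most correlated with the summed CPM. Sik1, Arc, Klf2, Klf10, Myc and the genes of single sentences on levels were also chosen after their values were seen. Suspensions numbered alike in the areas came from different mice and their deviations did not correlate (−0.00976 in all astrocytes to 0.0153 in AST3), so the numbers pair nothing there, whereas cell types of a suspension shared its mice and the fit with suspension as a block is given where it changes a call. Alternatives were another tool (DESeq2, limma), filter, scaling, depth, minimum number of cells, and leaving out a suspension. Fits without scaling factors, without plate 95, without astrocytes that held counts on 2 or more markers of another cell type, with AST5 not among the subtypes compared with, and of the difference between mural and AST3 area contrasts were chosen after seeing the data.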

Additional observations from a re-analysis of the deposited data

Results flagged for a closer look

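Of the groups of 4 to 10 values examined, 17 (12.2%) held a value far from the others, where chance gives about 1 in 20. In cortex 1, 9 of them were levels: Rhob in astrocytes (125 CPM), Gadd45g in endothelial cells (310.4 CPM), Egr1, Klf6, Nfkbiz and Nr4a1 in AST1 (32.8, 162.7, 31.6 and 39.2 CPM), and Arc, Nr4a1 and Ppp1r15a in AST3 (24.3, 27.5 and 96.1 CPM). Each was the highest of its 4 suspensions. Junb in endothelial cells of cortex 2 (799 CPM, 3 cells) was the lowest of its 4. The highest of their 4 were Klf10 in mural cells of hippocampus 2 (60.3 CPM), Csrnp1 in endothelial cells of cortex 2 (118.3 CPM), and Nfkbiz and Nr4a2 in endothelial cells of hippocampus 2 (112.7 and 10.5 CPM). Among plates, the mean summed CPM of the 36 genes stood apart on plate 95 of cortex 1 (3136), plate 155 of cortex 2 (1837) and plate 68 of hippocampus 1 (1469).

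The log2 ratio of hippocampal to cortical mean level (CPM + 1) had opposite signs in AST3 and AST1, with no overlap of the suspensions in either group, for 4 of 24 genes tested in both, against 6.01% of all genes with the same signs. AST3 minus AST1 was −5.03 for Socs3, −2.99 for Gadd45b, −3.51 for Ier3 and −1.56 for Rhob, and these differences were not tested. Between mural cells and AST3 the same held for 13 of 27 genes, against 6.41% of all genes with the same signs. Mural minus AST3 was 1.43 for Fos, 4.26 for Fosb, 2.61 for Jun, 2.95 for Junb, 2.19 for Egr1, 5.08 for Ier2, 2.74 for Btg2, 1.63 for Dusp1, 5.21 for Socs3, 1.79 for Zfp36, 9.30 for Arc, 3.34 for Klf4 and 1.98 for Rhob. None of these passed the edgeR test of the difference, as given above.

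Cells that entered no comparison also held these genes. The 33 cells of plate 95 whose type was not used here, since the copy of the list ends before them, had a mean of 1081 summed CPM, and the 15 cells listed with no type had 288.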

How the results depend on the processing

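Counts of the 36 genes that passed the test depended on the fit. In no fit did a called gene change direction (576 alternatives for 41 called results). Genes named without a call were not followed in this way. Calls were often lost: 31 of the 41 with the suspension as a replicate block, 27 to 35 without 1 suspension, 20 without the filter on low counts and 11 with limma. DESeq2 called 19 of the 36 in mural cells (18 higher, 1 lower), 20 in endothelial cells (17 and 3), 25 in microglia (19 and 6), 6 in neurons and 18 in oligodendrocytes (1 and 17), against 20.4%, 30.4%, 47.6%, 25.2% and 38.9% of all genes. For the subtypes from AST1 to AST5 it called 4, 3, 5, 7 and 22 genes in this order (5.205%, 4.83%, 3.99%, 11.5% and 43.7% of all genes), and between areas 2 in all astrocytes, 3 in AST1, 12 in AST3 (all lower in hippocampus) and 7 in mural cells (all higher), against 9.70%, 17.5%, 13.8% and 12.9%. Limma on mean log values called 20 in endothelial cells, 17 in microglia, 1 in neurons, 2 in oligodendrocytes (both higher), 11 in AST4 and 1 between areas in all astrocytes, against 21.8%, 22.1%, 19.96%, 18.1%, 12.4% and 2.64%. Without the filter on low counts, 1 was called in mural cells, 1 in endothelial cells and 3 in microglia (0.756%, 1.005% and 2.75% of all genes). Without scaling factors there were 13 in mural cells, 13 in endothelial cells and 2 in AST4 (13.01%, 13.19% and 0.691% of all genes), and the median log2 change of the genes turned from −0.36 to 0.75 in neurons and from 0.05 to −0.10 in AST1. With cells thinned to 50000 counts before summing there were 14 in mural cells, 15 in microglia and 2 in AST4 (11.3%, 24.3% and 1.395% of all genes). With at least 2 cells per sum there were 5 in mural and 3 in endothelial cells (13.5% and 17.6%), with at least 5 cells 16 in mural cells and 2 in neurons (15.1% and 2.86%), and with at least 10 cells 4 in AST4 and 5 in AST5 (1.76% and 11.2%). Equal weights for the subtypes compared against gave, for AST1 to AST4, 3, 1, 5 and 4, against 5.52%, 5.25%, 4.95% and 2.82%. With the suspension as a replicate block there were 0 in mural cells, endothelial cells and oligodendrocytes, 2 in microglia and 7 in AST5 (1.01%, 1.44%, 0.0061%, 3.15% and 12.45% of all genes), and no other count moved by over 1.5 times. Leaving out 1 suspension gave 0 to 1 in mural and endothelial cells, against 0.146% to 0.689% and 0.0661% to 0.727% of all genes. It gave 1 to 4 in microglia (1.07% to 3.85%) and 3 to 6 in AST5 (7.29% to 12.4%). Without cortex 1 and without cortex 2 there were 4 and 4 in oligodendrocytes (0.311% and 1.05%) and 1 and 2 in AST4 (0.617% and 0.572%). Without a hippocampal suspension these groups were left with 1 sum, and calls were lost. Without astrocytes that held counts on 2 or more markers of another cell type the counts were 8, 8 and 8 in mural cells, endothelial cells and microglia (13.01%, 17.09% and 11.03%). The causes of these differences were not tested. Of 32 shares of cells, 30 stayed within their interval with cells thinned to 600000 counts; Fos fell to 14.7% in astrocytes and 7.15% in AST1. Of 32 levels, 8 moved by more than 1 SD when means over cells replaced sums. Microglia, neurons and oligodendrocytes had 3, 2 and 2 sums.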

Other observations

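Heat shock genes, which encode chaperones, were set beside the 36 genes. Of 12 tested, 3 rose in mural cells by the edgeR test with Benjamini-Hochberg adjustment and 3 in endothelial cells, and none fell in either, beside 1.76% and 1.92% of all genes that rose. In microglia 1 rose (Hspa1b, by 7.72 ± 2.32 on the log2 scale, adjusted p = 0.0464) and 2 fell, which were Hspb1 (adjusted p = 0.0404) and the co-chaperone gene Bag3 (adjusted p = 0.0213). Hspb1, a small heat shock protein, rose by 10.22 ± 1.34 on the log2 scale in mural cells (adjusted p = 0.00268) and by 10.27 ± 1.35 in endothelial cells (adjusted p = 0.00327). Hspa1a, an inducible chaperone of the HSP70 family, rose by 8.75 ± 2.37 in mural cells (adjusted p = 0.0325) and by 7.66 ± 2.25 in endothelial cells (adjusted p = 0.0387), and its near-identical copy Hspa1b was also called in both. Only uniquely mapped reads were kept, so reads that match both copies alike were counted for neither. In AST5, 2 of 11 fell, which is near the 16.6% of all genes that fell there.

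Of 33 further early response genes tested, 1 rose and 3 fell in each of mural cells, endothelial cells and microglia. Of all 16368 genes, 1903, 2613 and 1727 fell in these types. The gene that rose was Sgk1, a serum- and glucocorticoid-induced kinase. On the log2 scale it rose by 5.51 ± 1.34 in mural cells, 7.72 ± 1.42 in endothelial cells and 9.07 ± 1.52 in microglia (edgeR adjusted p = 0.0325, 0.0133 and 0.00347). Sgk1 also rose in oligodendrocytes, by 7.19 ± 1.56 (edgeR adjusted p = 0.0488). Dusp6, Hes1 and Ccn1 fell in oligodendrocytes, against 0.739% of all genes, and in neurons, where 88 of all 16368 genes fell. In AST5, 5 of 31 fell, near the 16.6% of all genes that fell there. Of 7 cytokine and chemokine genes tested, 2 rose in microglia, which were the chemokine gene Ccl4 (adjusted p = 0.0367) and the interleukin gene Il1a (adjusted p = 0.0271), and Cxcl1 rose in mural cells (adjusted p = 0.0338), beside 0.794% and 1.76% of all genes that rose in these types. Lif, a cytokine gene of the interleukin-6 family, fell in mural cells (adjusted p = 0.0325) and in endothelial cells (adjusted p = 0.0387).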
